A study of Mus musculus with 6 samples.

Results

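The 8 enzymes and cofactors that set and remove DNA methylation in mouse cells are described here in cultured neural stem cells (NSC): Dnmt1, Uhrf1, Dnmt3a, Dnmt3b, Dnmt3l, Tet1, Tet2 and Tet3. They are given by name, with no rule on their values, and their symbols were matched to 8 of the 50686 gene identifiers in the count tables. RNASeq came from 2 wild-type NSC cultures and from 2 NSC cultures of the genotype STOPFloxBmi1;NestinCre, labelled NSC Bmi1Over. In the latter, Cre driven by the Nestin promoter removes a stop element in front of a Bmi1 transgene, so that recombination is limited to cells in which that promoter has been active. All cultures were primary, were derived from the cerebral hemispheres of late embryos and were grown with the same growth factors, EGF and FGF, and each library is 1 culture. Whether it was kept as neurospheres or as an adherent layer is not stated for these libraries. H3K27me3, the repressive histone mark set by Polycomb repressive complex 2, was mapped by ChIPSeq, of which 1 library per genotype was used here. Per the methods, each genotype had 2 such libraries and the weaker was dropped on read number and quality. The question put to these genes is whether their transcript levels or their H3K27me3 marking differ between the genotypes.

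DNA methylation in mammals is placed on cytosines that precede a guanine (CpG). After replication the mark is copied to the new strand by Dnmt1, which Uhrf1 brings to hemimethylated DNA, while Dnmt3a and Dnmt3b methylate unmodified CpG and Dnmt3l, which has no catalytic activity of its own, stimulates them in germ cells and early embryos. Tet1, Tet2 and Tet3 oxidise 5-methylcytosine, and the oxidised bases are then lost by dilution at replication or are cut out by the glycosylase Tdg and replaced through base excision repair. In neural stem cells this machinery is known for keeping germline and glial genes silent and for the timing of the switch from neuron to astrocyte production.

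The promoters are shown first, because CpG content is the feature on which these enzymes act and because the regions around the starts were also searched for H3K27me3. DNA methylation itself was not measured in the data used here. RefSeq (GRCm38.p6) gave windows of 300 bases, from 250 before to 50 after a transcription start, for 8 of 8 genes. Over all 32851 such windows the median was 7 CpG and the upper quartile 20. The richest window of a gene held 57 CpG for Tet2, 47 for Dnmt3a, 33 for Dnmt1, 33 for Uhrf1, 30 for Dnmt3b, 22 for Tet3 and 17 for Tet1. The windows do not cover every annotated start, of which Tet1 has 10 and Tet3 has 5. The only window of Tet1 (chr10:62887275-62887574) lies inside the gene, whose 5′ end is at 62908996. That of Tet3 (chr6:83441629-83441928) likewise lies inside a gene with its 5′ end at 83459084. The CpG content at the other starts was not examined. The richest of the 3 windows of Dnmt3l held 6 CpG, below the median of all windows, of which 47.9% held 6 or fewer. The stretches below are the parts of these windows that lie before the start and outside the annotated exons of the gene, read 5′ to 3′ on the strand of the gene, with every CpG in capitals. They contrast the densest promoter (Tet2), that of the maintenance cofactor (Uhrf1), those of the weakly transcribed de novo genes (Dnmt3b and Dnmt3l) and that of the gene with the largest difference between the groups (Tet1).
Tet2: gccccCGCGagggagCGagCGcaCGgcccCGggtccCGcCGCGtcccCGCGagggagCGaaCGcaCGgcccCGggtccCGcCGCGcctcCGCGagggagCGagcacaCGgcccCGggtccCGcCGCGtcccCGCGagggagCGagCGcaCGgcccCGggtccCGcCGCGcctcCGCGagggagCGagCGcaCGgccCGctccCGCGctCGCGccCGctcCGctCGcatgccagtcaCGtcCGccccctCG
Uhrf1: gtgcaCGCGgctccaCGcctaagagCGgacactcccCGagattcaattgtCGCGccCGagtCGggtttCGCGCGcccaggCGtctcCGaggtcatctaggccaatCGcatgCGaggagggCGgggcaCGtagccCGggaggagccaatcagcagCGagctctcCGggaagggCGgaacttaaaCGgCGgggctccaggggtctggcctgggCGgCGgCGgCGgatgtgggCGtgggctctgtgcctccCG
Dnmt3b: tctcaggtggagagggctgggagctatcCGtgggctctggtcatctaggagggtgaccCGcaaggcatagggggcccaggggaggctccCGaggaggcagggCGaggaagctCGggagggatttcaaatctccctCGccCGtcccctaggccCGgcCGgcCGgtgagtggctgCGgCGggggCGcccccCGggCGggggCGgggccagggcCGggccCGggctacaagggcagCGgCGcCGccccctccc
Dnmt3l: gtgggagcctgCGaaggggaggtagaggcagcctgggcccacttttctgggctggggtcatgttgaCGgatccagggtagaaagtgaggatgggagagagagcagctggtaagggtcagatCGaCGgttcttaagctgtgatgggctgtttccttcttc
Tet1: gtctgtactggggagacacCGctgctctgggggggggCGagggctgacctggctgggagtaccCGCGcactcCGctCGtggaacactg
The stretch of Tet2 lies at chr3:133544391-133544640 on the minus strand and holds 51 CpG in 250 bases. The stretch of Uhrf1 lies at chr17:56304063-56304312 on the plus strand with 30 CpG in 250 bases, and that of Dnmt3b at chr2:153649199-153649448 on the plus strand with 21 CpG in 250 bases. The stretch of Dnmt3l lies at chr10:78042128-78042286 on the plus strand and holds 4 CpG in 159 bases. That of Tet1 lies at chr10:62887325-62887412 on the minus strand and holds 6 CpG in 88 bases. The words TTTCCCGC, TTTGGCGC, TTTCGCGC and TTTGCCGC, which are forms of the site of the cell cycle factor E2F, were searched on both strands with overlaps allowed. The richest window of Dnmt1 held 2 matches and that of Uhrf1 held 1, TTTCGCGC beginning 185 bases before the start. No other window of the 8 genes held one, against 744 of all windows (2.26%). A match is only a run of letters and was not tested as a site.

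**Figure D1:**
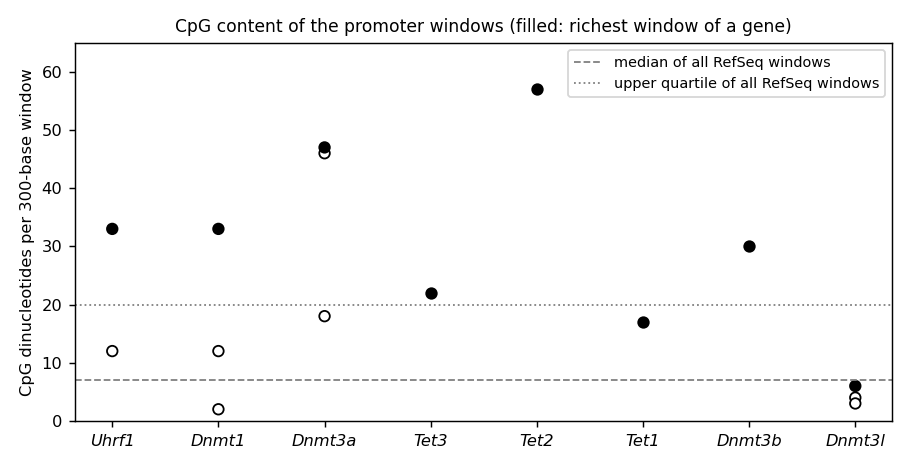
CpG dinucleotides (y axis, number per window of 300 bases) in each RefSeq promoter window of the 8 genes (x axis), with the richest window of a gene filled and its other windows open, and lines at the median (7) and upper quartile (20) of all windows. The richest windows of Tet2, Dnmt3a, Dnmt1, Uhrf1, Dnmt3b and Tet3 lie above the upper quartile, that of Tet1 (17) between the lines and those of Dnmt3l below the median.

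The depth of the RNASeq libraries ranged from 18112100 to 61353076 counted reads. Unmapped reads made up 11.2% to 13.7% of the reads in NSC and 16.2% to 17.6% in the libraries labelled NSC Bmi1Over, and the 10 most abundant genes took 5.23% to 6.48% and 8.57% to 10.1% of the counted reads, so that both measures moved with genotype. Bmi1 itself, at 133 and 124 CPM (read counts at a common library size, scaled by the trimmed mean of M-values) in NSC against 119 and 113 in the libraries labelled NSC Bmi1Over, was not raised (log2 fold change −0.15 ± 0.12 SE, edgeR quasi-likelihood test, adjusted p = 0.463), so that the label is used below as a name and not as a measured overexpression. How much of the transgene's RNA is counted on this gene is not known from the counts. All 10 neural stem cell markers were tested and none passed, with 2 at an unadjusted p under 0.05 (Sox2 and Hes5, named after their values were seen), against 24.2% of all tested genes. Their log2 fold changes were negative for 7, and 6 had both libraries labelled NSC Bmi1Over below both NSC libraries, against 30% of all tested genes. The stem cell factor Sox2 had 260 and 216 against 179 and 177 CPM (log2 fold change −0.42, adjusted p = 0.129). Of the markers with most reads, Slc1a3, a glutamate transporter of radial glia, had 1840 and 2230 against 2530 and 3060 CPM (0.46, adjusted p = 0.257) and Vim, an intermediate filament gene, 1420 and 1520 against 1400 and 1340 CPM (−0.1, adjusted p = 0.754). Of 18 tested markers of other cell types 2 passed, both lower in the libraries labelled NSC Bmi1Over, a direction in which 0.122% of all tested genes were called: the astrocyte gene Aldh1l1 (122 and 94.2 against 66 and 53.3 CPM, log2 fold change −0.86, adjusted p = 0.044) and the oligodendrocyte gene Cnp (91.4 and 71 against 47.8 and 49.6 CPM, −0.74, adjusted p = 0.0458). Neither call held without NSC replicate 1 or without replicate 2 labelled NSC Bmi1Over (−0.66 and −0.71 for Aldh1l1, −0.55 and −0.77 for Cnp), where adjusted p ranged from 0.0704 to 0.344. The most abundant astrocyte marker, the glutamate transporter Slc1a2, lay the other way without overlap or a call (196 and 223 against 232 and 316 CPM, log2 fold change 0.39, adjusted p = 0.223). The summed level of 7 oligodendrocyte markers was 131 and 116 CPM in NSC against 72.4 and 110 in the libraries labelled NSC Bmi1Over, while that of 5 astrocyte markers overlapped between the groups (337 and 334 against 316 and 381), as did that of 6 neuron markers. The 5 microglia markers summed to 1.3 and 1.98 against 2.46 and 3.1 CPM and the 4 endothelial ones to 1.77 and 2.14 against 2.63 and 3.17 CPM, with 1 gene tested and 0 called in each of these lists. Most of each sum came from that gene, P2ry12 (1.27 to 2.96 CPM) and Kdr (1.52 to 2.71 CPM). The 5 mesenchymal, 5 erythroid and 6 pluripotent cell markers did not exceed a sum of 1.15 CPM in any library, and 4 of the erythroid and 3 of the pluripotent ones had no read. In such bulk samples fewer cells of a type and less RNA per cell cannot be told apart.

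Levels were compared between genes as CPM per kilobase of exon. The maintenance pair was the most abundant of the 8 genes and the germ cell cofactor Dnmt3l the least, with the other 5 in between. Uhrf1 averaged 57.5 CPM per kilobase over the 4 libraries (range 52.8 to 61) and Dnmt1 51.4 (47.1 to 55.2), which placed them above 96% and 95.4% of the 17060 protein-coding genes with reads. Dnmt3a averaged 11.6 (11 to 12.5) and Tet3 10.1 (8.51 to 11). Tet2 averaged 3.8 (3.22 to 4.33), Tet1 3.03 (2.28 to 4.06) and Dnmt3b 1.11 (0.937 to 1.32). Dnmt3l averaged 0.0218 CPM per kilobase (0.0106 to 0.0382) on 1 or 2 reads per library.

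The order held 3 pairs of neighbours whose ranges over the 4 libraries overlapped, namely Uhrf1 and Dnmt1, Dnmt3a and Tet3, and Tet2 and Tet1. Per kilobase of all exons, the levels within these pairs are not apart beyond that spread. Compared library by library, Uhrf1 lay above Dnmt1 in 4 of 4 libraries, Tet2 above Tet1 in 4 of 4 and Dnmt3a above Tet3 in 3 of 4. The other neighbours did not overlap. Dnmt1 was 4.43-fold above Dnmt3a, Tet3 2.66-fold above Tet2 and Tet1 2.73-fold above Dnmt3b on this scale. The 8 places were the same with the longest transcript in place of all exons, with library size alone and with the sum of the stranded counts. The overlaps depended on the length used. With the longest transcript, Tet2 (5.91 to 7.96) lay wholly above Tet1 (2.45 to 4.37), and Dnmt3a (18.8 to 21.5) wholly above Tet3 (13 to 16.9). Uhrf1 and Dnmt1 still overlapped there.

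**Figure D2:**
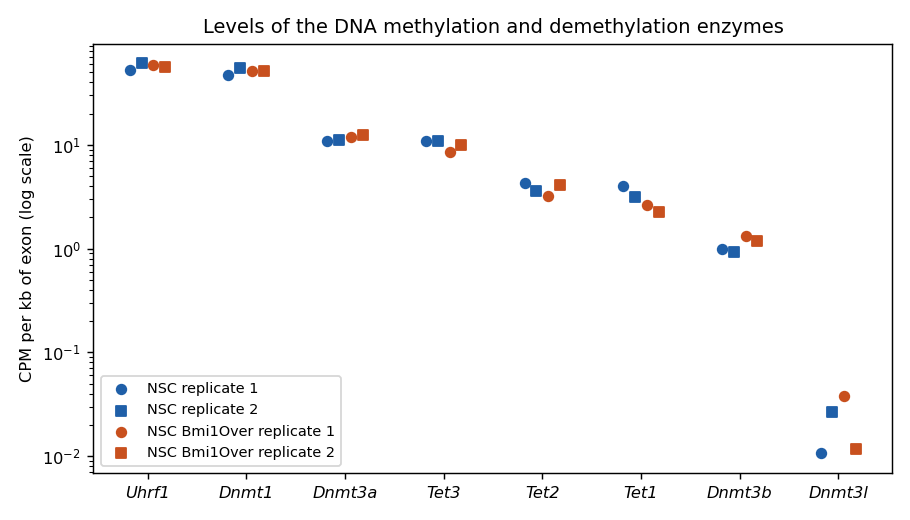
CPM per kilobase of exon (y axis, log scale) of the 8 genes (x axis, in order of their mean) in each library, with NSC in blue, the libraries labelled NSC Bmi1Over in orange, circles for replicate 1 and squares for replicate 2. Uhrf1 and Dnmt1 lie between 47.1 and 61 in all 4 libraries, and Dnmt3l below 0.0382 or at it.

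Ratios between the genes were also read per library. Uhrf1 stood to Dnmt1 as 1.12 and 1.1 in NSC and as 1.16 and 1.09 in the libraries labelled NSC Bmi1Over. Dnmt3a exceeded Dnmt3b per kilobase by 11-fold and 11.8-fold in NSC and by 8.95-fold and 10.7-fold in the libraries labelled NSC Bmi1Over. Of the summed level of the 3 Tet genes per kilobase, Tet3 made up 56.8% and 61.9% in NSC against 59.2% and 61% in the libraries labelled NSC Bmi1Over. The share of Tet1 was 20.9% and 17.9% in NSC against 18.4% and 14% in the libraries labelled NSC Bmi1Over, so that the groups overlapped in it. Tet3 over Tet1 was 2.72 and 3.47 in NSC and 3.21 and 4.38 for NSC Bmi1Over, the widest of these ratios relative to its size. Gene counts do not separate isoforms, of which the annotation lists between 5 (Tet3) and 18 (Dnmt3a).

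None of the 8 genes passed the test between the genotypes. Of the 15521 genes tested with edgeR's quasi-likelihood model, 334 (2.15%) were called at a Benjamini-Hochberg adjusted p under 0.05, 315 of them (2.03% of those tested) higher in the libraries labelled NSC Bmi1Over. Of the 8 genes, 7 had enough reads to be tested and 0 were called, with 1 (Tet1) at an unadjusted p under 0.05, against 24.2% of all tested genes, and 1 (again Tet1) called by DESeq2, which called 11.2% of the 13414 genes it gave an adjusted p. The groups did not overlap for 4 of the 7, which is no more than the 59% of all tested genes for which this held. Their median log2 fold change was 0.01, beside −0.01 over all tested genes. With 2 cultures against 2, an exact two-sided permutation test of a single gene cannot give a p below 0.333.

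Dnmt1, the maintenance methyltransferase (ENSMUSG00000004099, chr9:20907209-20959888, minus strand, mm10), was counted at 348 and 407 CPM in NSC against 380 and 381 CPM in the libraries labelled NSC Bmi1Over. Both of the latter lay between the NSC cultures, which differed from each other by 0.23 on the log2 scale. The log2 fold change was 0.01 ± 0.15 (SE, n = 2 per group, edgeR quasi-likelihood test, adjusted p = 0.963), with a 95% interval from −0.34 to 0.36. Uhrf1, its recruiter (ENSMUSG00000001228, chr17:56303321-56323486, plus strand), had 225 and 260 CPM in NSC against 254 and 241 CPM in the libraries labelled NSC Bmi1Over, again inside the range of the NSC cultures. Its log2 fold change was 0.03 ± 0.14 (SE, adjusted p = 0.911, interval −0.3 to 0.36). As folds, the intervals ran from 0.791 to 1.29 for Dnmt1 and from 0.814 to 1.28 for Uhrf1, and changes within them were not detectable with these cultures.

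As both maintenance genes are known to be transcribed mostly in S phase, 14 genes of S phase and proliferation were read beside them. None was called by edgeR or DESeq2 and none was at an unadjusted p under 0.05. Log2 fold changes were negative for 11 of the 14, with a median of −0.17. Their summed level was 3370 and 3620 CPM in NSC against 3700 and 3190 CPM in the libraries labelled NSC Bmi1Over, so that the groups overlapped. The members furthest from 0 were the proliferation antigen gene Mki67 (852 and 1040 against 1180 and 1100 CPM, log2 fold change 0.28 ± 0.19 SE, adjusted p = 0.39) and the replicative helicase subunit Mcm7 (194 and 203 against 181 and 154 CPM, −0.25 ± 0.14 SE, adjusted p = 0.301). Mki67 was 0.14 without NSC replicate 1, and Mcm7 −0.13 without replicate 2 labelled NSC Bmi1Over.

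Dnmt3a, the main de novo enzyme of brain (ENSMUSG00000020661, chr12:3806007-3914443, plus strand), had 182 and 185 CPM in NSC against 197 and 208 CPM in the libraries labelled NSC Bmi1Over. Both libraries labelled NSC Bmi1Over were higher than both NSC libraries, but the difference did not pass the test (log2 fold change 0.14 ± 0.13 SE, edgeR, adjusted p = 0.51, interval −0.15 to 0.44). An antisense gene, Dnmt3aos, shares 133 bases of its exons, 0.799% of their length, and its reads cannot be told apart in unstranded counts.

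Dnmt3b, the de novo enzyme of early embryos (ENSMUSG00000027478, chr2:153649450-153687730, plus strand), was counted with 160 and 121 reads in NSC against 118 and 343 in the libraries labelled NSC Bmi1Over, which came to 5.07 and 4.79 CPM against 6.74 and 6 CPM. Here too the groups did not overlap and the libraries labelled NSC Bmi1Over were higher. The log2 fold change of 0.36 ± 0.21 (SE, edgeR, adjusted p = 0.308, interval −0.11 to 0.83) was the least precise of those tested, on the fewest reads.

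Dnmt3l (ENSMUSG00000000730, chr10:78041947-78063622, plus strand) had 1 and 2 reads in NSC against 2 and 2 reads in the libraries labelled NSC Bmi1Over. These are 0.0317 and 0.0791 CPM (exact Poisson 95% intervals 0.000802 to 0.177 and 0.00958 to 0.286) and 0.114 and 0.035 CPM (0.0138 to 0.413 and 0.00424 to 0.126). All 4 values lie at or under what 3 reads would give, so no fold was computed and a difference was not detectable at this depth. The intervals cover counting error only. Exons of Dnmt3l share 67 bases with those of Aire, 2.24% of their length, and the sum of the stranded columns gave 8 reads in place of 7.

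**Figure D3:**
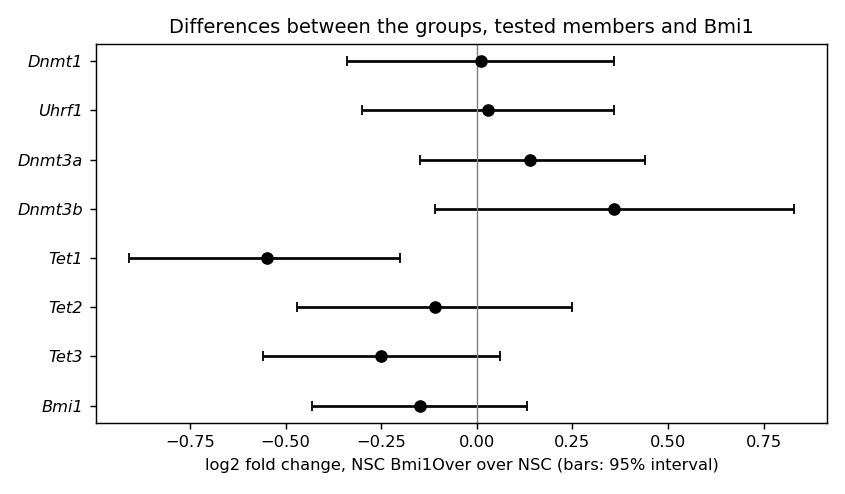
Log2 fold change of the libraries labelled NSC Bmi1Over over NSC (x axis) for the 7 tested genes and Bmi1 (y axis), with points for edgeR's estimates from 2 cultures per group and bars for 95% intervals. The bar of Tet1 (−0.91 to −0.2) does not reach 0, although its adjusted p of 0.0896 is above 0.05, and the other bars cross 0.

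Tet1 (ENSMUSG00000047146, chr10:62804570-62908996, minus strand) showed the largest difference among the 7 tested genes. It was counted at 62.7 and 48.6 CPM in NSC against 41 and 35.2 CPM in the libraries labelled NSC Bmi1Over, means of 55.7 ± 10 and 38.1 ± 4.04 (SD, n = 2 each). Every library labelled NSC Bmi1Over was below every NSC library, but the NSC cultures stood 0.37 apart on the log2 scale, more than the gap between the lower of them and the nearer library labelled NSC Bmi1Over. The level was 0.682 of that in NSC (95% interval 0.533 to 0.873), a log2 fold change of −0.55 ± 0.16 (SE), and the adjusted p of 0.0896 in edgeR's quasi-likelihood test missed the threshold of 0.05. Whether Tet1 passed depended on the method: the adjusted p was 0.0351 in DESeq2, 0.0463 with library size alone (which called 3.46% of all genes) and 0.00365 without a filter on low counts (8.25%), and it ranged from 0.00365 to 0.786 over the alternatives without a replicate block. Single cultures moved the value too. The log2 fold change was −0.73 without NSC replicate 2 and −0.66 without replicate 1 labelled NSC Bmi1Over. It was −0.44 without replicate 2 labelled NSC Bmi1Over and −0.36 without NSC replicate 1. Such fits leave 1 culture in a group and differed widely in how many genes they called. A pass in them, here and for other genes, is therefore not read as a result. In the same libraries unmapped reads, and the part of counted reads falling on the top 10 genes, moved with genotype. The markers Aldh1l1 and Cnp were called lower. No stem cell marker passed, but 6 of the 10 were lower without overlap, against 30% of all tested genes, and 1, Slc1a3, was higher without overlap. The astrocyte marker Slc1a2 was also higher without overlap or a call. What part these differences have in the value of Tet1 was not tested.

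Tet2 (ENSMUSG00000040943, chr3:133463679-133545139, minus strand) had 73 and 60.1 CPM in NSC against 54.3 and 68.9 CPM in the libraries labelled NSC Bmi1Over. The groups overlapped, and replicates of either group were further apart than the group means (log2 fold change −0.11 ± 0.16 SE, edgeR, adjusted p = 0.693, interval −0.47 to 0.25). Tet3 (ENSMUSG00000034832, chr6:83362373-83459084, minus strand), the most abundant of the 3 per kilobase, had 184 and 182 CPM in NSC against 142 and 167 CPM in the libraries labelled NSC Bmi1Over. Both libraries labelled NSC Bmi1Over were below NSC, without passing the test (log2 fold change −0.25 ± 0.14 SE, edgeR, adjusted p = 0.297, interval −0.56 to 0.06), and the value was −0.14 without replicate 1 labelled NSC Bmi1Over.

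The genes whose levels followed each enzyme most closely over the 4 libraries were found by the smallest root mean square difference of centred log2 CPM among 12251 protein-coding genes. They were As3mt for Tet1 (0.015), Rimkla and Tcp11l2 for Tet2 (0.02 and 0.024), Rims2 and Tanc2 for Tet3 (0.0041 and 0.0098), Gtse1 and Helq for Dnmt1 (0.011 and 0.013) and Eme1 and Gpx3 for Uhrf1 (0.0058 and 0.0066). Zfp263 and Dnajc4 lay closest to Dnmt3a (0.0055 and 0.0071), and Cfap100 and Mapkapk5 to Dnmt3b (0.018 and 0.023). With 4 libraries from 2 genotypes, close matches arise for nearly any gene, and the list is a description only.

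The partners of these enzymes were read from 8 lists with 106 genes, of which 88 were tested. None was called by edgeR, against 2.15% of all tested genes, while 14 (15.9%) were at an unadjusted p under 0.05, against 24.2%, and DESeq2 called 2, beside 11.2% of all genes it gave an adjusted p. Fold changes were negative for 65 of the 88 (73.9%), against 51.4% of all tested genes. Their median was −0.15, beside −0.01 over all tested genes in the same fit. In 41 of them (46.6%) both libraries labelled NSC Bmi1Over were below both NSC libraries, against 30% of all tested genes, and in 11 (12.5%) both were above, against 29%. With library size alone as the scale, the median of all tested genes was −0.17. Values of partner genes fell with it, such as Pcna from −0.26 to −0.41 and Tdg from −0.34 to −0.49. The partner median of −0.15 is therefore not comparable with that −0.17.

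Among the 9 partners of maintenance, log2 fold changes were negative for 8 and lay between −0.27 and 0.02. The sliding clamp gene Pcna, which holds Dnmt1 at the replication fork, had 287 and 286 CPM in NSC against 270 and 208 in the libraries labelled NSC Bmi1Over (log2 fold change −0.26 ± 0.16 SE, edgeR, adjusted p = 0.348). Cdca7l, a relative of the Hells activator Cdca7, had 26 and 22.9 against 23 and 18.1 CPM (−0.27 ± 0.16 SE, adjusted p = 0.331). Without replicate 2 labelled NSC Bmi1Over these values were −0.08 for Pcna and −0.09 for Cdca7l. Of the 12 tested chromatin factors that direct methylation, 9 had negative values. Suv39h2, which methylates histone H3 lysine 9, had 17.3 and 17.4 against 14.3 and 13.3 CPM (−0.34 ± 0.15 SE, adjusted p = 0.204). Zfp57, which protects imprinted methylation, had 12.8 and 11.6 against 10.8 and 19.9 CPM, so that its value of 0.36 rested on replicate 2 labelled NSC Bmi1Over and was −0.17 without it, while it was 0.71 without replicate 1 of that label (edgeR, adjusted p = 0.0223, range 0.0223 to 0.801 over the cultures left out).

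Closer to the Tet genes, 6 of 9 cofactors and adaptors had negative values. Cxxc4, a CXXC domain protein encoded beside Tet2, had 14.8 and 13.9 CPM in NSC against 7.83 and 10.7 CPM in the libraries labelled NSC Bmi1Over (log2 fold change −0.61 ± 0.19 SE, edgeR, adjusted p = 0.107). The ascorbate transporter Slc23a2 had 92.1 and 120 against 123 and 159 CPM (0.41 ± 0.18 SE, adjusted p = 0.196), and passed only without replicate 1 labelled NSC Bmi1Over among the cultures left out (0.58, adjusted p = 0.0463, range 0.0463 to 0.925), with 0.23 without NSC replicate 1 and 0.22 without replicate 2 labelled NSC Bmi1Over. In base excision repair 11 of 14 tested genes had negative values, with a median of −0.23. Tdg, the glycosylase that removes oxidised cytosines, had 97.1 and 97.4 against 80.3 and 73.4 CPM (−0.34 ± 0.12 SE, adjusted p = 0.138). Gadd45b, an adaptor of active demethylation, had 1.87 and 1.31 against 1.03 and 1.42 CPM, and the groups overlapped.

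Of 14 readers of methylated or unmethylated CpG, 10 had negative values. The exceptions with the largest values were Mbd6, which carries a methyl-CpG binding domain, at 70.9 and 94.8 against 108 and 152 CPM (0.66 ± 0.2 SE, edgeR, adjusted p = 0.0964, and 0.0178 in DESeq2, with a range of 0.000784 to 0.642 over the same alternatives), and the H3K4 methyltransferase Kmt2b at 132 and 159 against 169 and 206 CPM (0.37 ± 0.16 SE, adjusted p = 0.197). Kmt2b was 0.23 without NSC replicate 1 and 0.22 without replicate 2 labelled NSC Bmi1Over. Mbd6 passed without NSC replicate 2 (0.87) or replicate 1 labelled NSC Bmi1Over (0.87), and was 0.46 without NSC replicate 1 and 0.39 without replicate 2 labelled NSC Bmi1Over. Of 13 tested genes of methyl donor supply, 8 had negative values. Shmt2, the mitochondrial serine hydroxymethyltransferase that feeds one-carbon metabolism, had 345 and 328 CPM in NSC against 210 and 247 CPM in the libraries labelled NSC Bmi1Over. Its log2 fold change of −0.56 ± 0.15 (SE) had the smallest adjusted p of the 8 lists, 0.0801 in edgeR and 0.00783 in DESeq2, with a range of 0.00544 to 0.575 over them. Gnmt, which uses up S-adenosylmethionine, had only 18 to 76 reads per library (0.83 ± 0.35 SE, adjusted p = 0.196, and 0.51 without NSC replicate 1).

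Germline genes that DNA methylation keeps silent in somatic cells stayed near the floor. Only 3 of the 18 had enough reads to be tested, 4 had none in any library, and the largest count of any of them was 108 reads. Their summed level was 5.89 and 3.76 CPM in NSC against 3.94 and 3.62 CPM in the libraries labelled NSC Bmi1Over. Brdt, a testis bromodomain gene, had 3.42 and 2.02 against 1.37 and 1.64 CPM (log2 fold change −0.83 ± 0.33 SE, edgeR, adjusted p = 0.171), and the germ cell helicase Ddx4 had 1.24 and 0.949 against 1.03 and 0.682 CPM (−0.44 ± 0.36 SE, adjusted p = 0.466). The value of Brdt ranged from −1.16 without NSC replicate 2, where it passed (adjusted p = 0.0451), to −0.4 without NSC replicate 1 (0.93), and that of Ddx4 from −0.69 to −0.1 over the cultures left out.

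**Figure D4:**
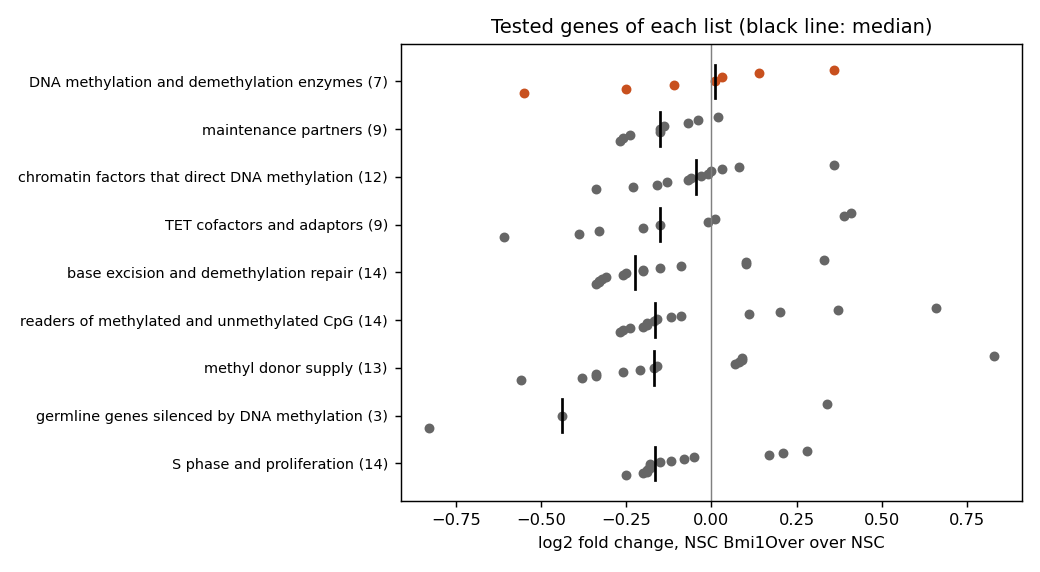
Log2 fold change of the libraries labelled NSC Bmi1Over over NSC (x axis) of every tested gene in the enzyme group (orange) and in the 8 partner lists (grey), 1 row per list with the number tested in brackets and a black line at the median. The medians of the partner lists lie between −0.44 and −0.05 and that of the enzymes at 0.01, and no point passed the test.

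H3K27me3 was absent from all 8 genes in the deposited peak lists. No broad peak of NSC or of NSC Bmi1Over overlapped a window of 5 kb around any annotated start, or the gene body, of Dnmt1, Uhrf1, Dnmt3a, Dnmt3b, Dnmt3l, Tet1, Tet2 or Tet3. Among protein-coding genes 8.89% had a promoter peak in NSC and 4.44% in NSC Bmi1Over, so that the lack of a peak is what most genes showed. The peak lists hold only regions of at least 3.52-fold (NSC) and 4.03-fold (NSC Bmi1Over) enrichment, and weaker marking cannot be seen in them. The 2 lists come from 1 library each, so their difference has no replicate check, and the methods give unequal read totals for the ChIPSeq libraries, so that depth and genotype cannot be told apart in the number of peaks.

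The nearest peaks lay far away. In NSC the closest was 118 kb from the start of Dnmt3b (chr2:153531254-153531475, 4.31-fold), followed by Tet3 at 119.4 kb and Uhrf1 at 145.9 kb. In NSC Bmi1Over the closest were at 225.2 kb from Tet3 and 288.6 kb from Dnmt1. The furthest were those of Tet2, at 1385 kb in NSC (chr3:132086512-132086835, 3.7-fold) and 2358.8 kb in NSC Bmi1Over. For 8 of 8 genes the nearest peak was closer in NSC, whose list holds 12982 peaks against 6810. For Dnmt3a the distances in the lists differed by only 4 bases (695750 and 695754). That peak (chr12:3109717-3110257 in NSC) stood apart in height, at 18.7-fold in NSC and 11.1-fold in NSC Bmi1Over. The highest of the other nearest peaks was 6.49-fold. It lay 199712 bases from the nearest coding start in NSC, and whether it is an artefact of mapping was not tested. Dnmt3l, almost without transcripts, had no peak within 354.8 kb. Within the narrower promoter window of 5 kb, of 6314 protein-coding genes with at most 2 reads in every library, 493 (7.81%) had a promoter peak in NSC and 319 (5.05%) in NSC Bmi1Over.

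**Figure D5:**
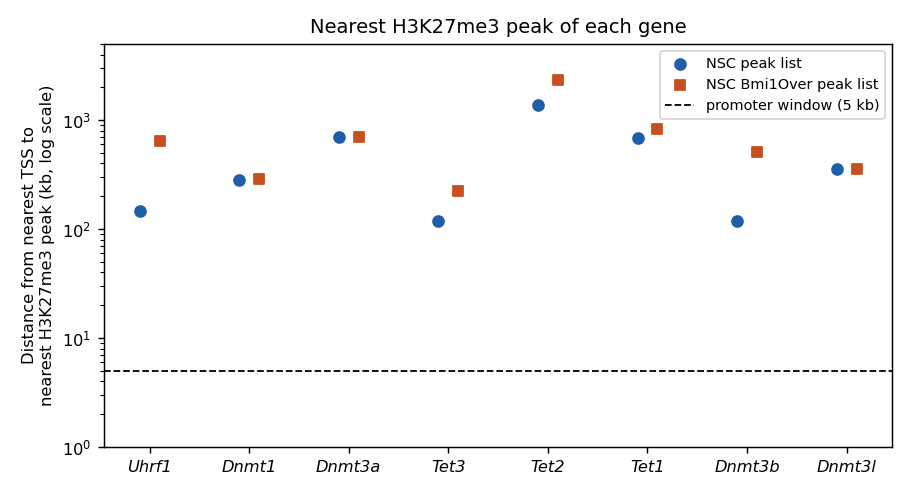
Distance from the nearest annotated start of each of the 8 genes (x axis) to the nearest H3K27me3 peak (y axis, kb, log scale) in the peak list of NSC (blue) and of NSC Bmi1Over (orange), with a dashed line at the 5 kb promoter window. All distances are 118 kb or more, and those of Tet2 are the largest.

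In the partner lists 6 of 106 genes (5.66%) had a promoter peak in NSC, against 8.89% of protein-coding genes, and 3 (2.83%) in NSC Bmi1Over, against 4.44%, so that neither share exceeds the background. In NSC these were the O-GlcNAc transferase Ogt, the repair genes Smug1 and Gadd45b, and the germline genes Sycp1, Tdrd1 and Stk31. In NSC Bmi1Over they were Smug1, Stk31 and the germ cell RNA-binding gene Dazl. Smug1, a uracil glycosylase, had peaks of 3140 and 1636 bases in NSC (chr15:103167666-103170805 and chr15:103171214-103172849) and 3 shorter ones in NSC Bmi1Over, the longest of 599 bases. None of the maintenance partners, the chromatin factors, the CpG readers, the methyl donor genes or the S phase genes was marked in either list.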

How the data were processed

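RNASeq was measured in 2 NSC and 2 NSC Bmi1Over cultures and H3K27me3 in 1 ChIPSeq library of each. The glioma samples of the study were not analysed here. Totals of both strand columns were nearly equal, so unstranded counts were used. Per the methods, the authors used Trim Galore for trimming and STAR for alignment to mm10 and deposited raw counts per gene. Reads not counted on a gene, unmapped reads included (27.8% to 34.1% per library), were left out. ChIPSeq reads were aligned with Bowtie 2.3.4 and broad peaks called with MACS2 per library. The deposited lists hold, per peak, its fold over background (a ratio) and 2 −log10 values, of the p-value and of the q-value.

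Of 50686 identifiers, 50462 matched GENCODE vM21 on mm10. Counts were filtered with filterByExpr (15521 genes), scaled by TMM and tested with edgeR 4.0.16 (limma 3.58.1, R 4.3.3) without a replicate term, with Benjamini-Hochberg adjustment over all genes and a threshold of 0.05. The standard error came from the fold change and the F statistic. Adjusted p-values in the text are from this fit unless DESeq2 1.42.0 is named. Peaks and promoters were handled in Python 3.11.15. A promoter reached 5 kb either side of any annotated start, and 1 bp of overlap counted. The steps were tested on simulated data.

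The genes, the partner and marker lists and the rule for naming were chosen with earlier results of these data known. The rule named the 8 enzymes, Bmi1, the called genes or otherwise the 2 largest fold changes of each list, the 2 nearest patterns of each enzyme, the 2 most abundant and any called markers, and the nearest peaks. Not every gene meeting it is described, 1 item is not reported here, and the marked partner genes were named after their peaks were seen. Alternatives were DESeq2, its size factors, library size alone, other filters, stranded sums, coding genes only, thinning to 18112100 reads, a replicate block, each culture left out, and stricter peak limits. Cultures are biologically independent per the methods. The peak lists carry no depth, and the read totals in the methods are not tied to the libraries kept. The checks of Aldh1l1 and Cnp under the alternatives were added after the data were seen.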

Additional observations from a re-analysis of the deposited data

How the results depend on the processing

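The count of called genes, 334, was 1496 in DESeq2, 537 with library size alone, 2356 without a filter on low counts, 528 after thinning, and 176 to 2546 when a culture was left out (176 without NSC replicate 1, 1461 without NSC replicate 2 and 2546 without replicate 1 labelled NSC Bmi1Over). Library size alone moved the median of all genes to −0.17, a shift shared by Dnmt1, Uhrf1 and Dnmt3a below, and 64.4% of its calls were higher in NSC Bmi1Over against 94.3%. Of the 8 enzymes 0 were called, and 1, Tet1, in DESeq2 (log2 fold change −0.54), with library size alone (−0.7), without the filter (−0.57), and 0 to 1 with a culture left out (−0.73 to −0.36). Values that turned were those of Dnmt1 (−0.13 with library size alone, −0.01 without the filter, −0.1 to 0.13 with a culture left out), Uhrf1 (−0.12 with library size alone, −0.07 to 0.13 with a culture left out, the lowest without NSC replicate 1), Dnmt3a (−0.01 with library size alone), Tet2 (−0.29 to 0.05 with a culture left out) and Zfp57 (−0.17 to 0.71 with a culture left out). The cause was not tested. No partner list had a call, but without the filter 1 gene each was called among TET cofactors, readers, methyl donor genes and germline genes, DESeq2 called 1 reader and 1 methyl donor gene, and library size alone called 1 methyl donor gene. With a culture left out, 0 to 2 methyl donor genes and 0 to 1 genes were called among chromatin factors, TET cofactors, repair genes, readers and germline genes. A culture left out leaves 1 in its group, which is then assumed to vary like the other group.

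With the replicate number as a block, 3459 genes (22.3%) were called, of them Tet1 (−0.54, adjusted p = 0.00244), 3 TET cofactors, 2 repair genes, 2 readers and 4 methyl donor genes. The labels give only a number, and over 15521 genes the deviations of same-numbered libraries correlated at r = 0.169 for the 2 pairs, so the pairing was not taken as real. Of the named partner genes, Cxxc4, Tdg and Kmt2b, and those whose changes the report gives (Slc23a2, Mbd6, Shmt2, Brdt and Zfp57), passed under at least 1 alternative. The other log2 fold changes of enzymes, Bmi1 and named partner genes kept their direction and side of the threshold. Those of Aldh1l1 and Cnp kept their direction, and missed the threshold under 2 and 5 alternatives, among them 2 each with a culture left out. The peak limits tried were all stricter and could not add to 0 of 8 enzymes with a peak. Depth limits Dnmt3l, Dnmt3b, Gnmt, Gadd45b, Ddx4 and most germline genes.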
